A study of Mus musculus with 7 samples.

Results

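A set of 37 genes that report on mitogen-activated protein kinase (MAPK) signalling was followed in mouse pancreatic spheroids by RNA sequencing. The set holds AP-1 subunits, EGR and other immediate early genes, the phosphatases and inhibitors that dampen the pathway, and ETS factors and growth genes downstream of it. The genes were listed by name rather than by a cut on their values, but with earlier results of these data known. All 37 were found among the 54446 genes of the deposited count table. The spheroids, free-floating epithelial cultures of the pancreas, came from wild-type C57BL/6J mice that were untreated (3 libraries, 01 to 03) or had been treated earlier with caerulein (4 libraries, 01 to 04). Caerulein is a cholecystokinin analogue that provokes acute pancreatitis. Neither the age of the mice nor the caerulein dose or the time from treatment to culture is given in the labels. All cultures, untreated ones included, were grown in a medium with 20 ng/ml EGF, 100 ng/ml cholera toxin, 0.5 µM hydrocortisone, insulin and serum supplement. The medium itself therefore carried an agonist of the EGF receptor and an activator of adenylate cyclase, and no library was taken without them. Nothing in the labels says that each library had its own animal or culture. The p-values therefore reflect only how far these libraries differ from each other, which may be technical.

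EGF receptor signalling passes through RAS, RAF and MEK to the ERK kinases, which phosphorylate transcription factors such as the ternary complex factors that act with SRF. Within minutes of a stimulus these factors switch on immediate early genes, among them Fos and Egr1, without new protein synthesis. Fos and Jun proteins pair through leucine zippers to form AP-1, and the identity of the pair changes which genes are bound and how strongly. The pathway is held in check by its own targets: dual-specificity phosphatases (DUSPs) dephosphorylate the kinases, and Sprouty and Spred proteins inhibit signalling at the level of RAS and RAF. In the pancreas this pathway is known for its part in acinar-to-ductal metaplasia and in pancreatic tumours.

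The promoters of 5 members on which the comparisons below turn are printed first, to show the sequence next to the start sites of genes whose post-caerulein levels were lower. They are the 3 genes called with the authors' block (Fos, Fosl2 and Ier3) and a pair whose groups did not overlap (Dusp6 and Zfp36). Each is the 250 bases before the start site in RefSeq (GRCm38.p6), 5′ to 3′ on the gene's strand. Fos lies at chr12:85473640-85473889 (plus strand), Fosl2 at chr5:32136222-32136471 (plus), Ier3 at chr17:35821463-35821712 (plus), Dusp6 at chr10:99262981-99263230 (plus) and Zfp36 at chr7:28379229-28379478 (minus). Capitals mark matches, on either strand, to the motifs described after the sequences.
Fos: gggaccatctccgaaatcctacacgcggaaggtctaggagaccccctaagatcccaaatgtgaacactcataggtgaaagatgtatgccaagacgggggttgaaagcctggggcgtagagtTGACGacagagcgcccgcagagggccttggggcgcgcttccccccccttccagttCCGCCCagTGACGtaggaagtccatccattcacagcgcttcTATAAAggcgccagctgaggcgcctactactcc
Fosl2: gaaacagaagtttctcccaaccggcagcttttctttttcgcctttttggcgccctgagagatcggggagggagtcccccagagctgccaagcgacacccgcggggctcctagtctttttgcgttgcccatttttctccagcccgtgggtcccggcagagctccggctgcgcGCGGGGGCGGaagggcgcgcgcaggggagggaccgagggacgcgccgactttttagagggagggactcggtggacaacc
Ier3: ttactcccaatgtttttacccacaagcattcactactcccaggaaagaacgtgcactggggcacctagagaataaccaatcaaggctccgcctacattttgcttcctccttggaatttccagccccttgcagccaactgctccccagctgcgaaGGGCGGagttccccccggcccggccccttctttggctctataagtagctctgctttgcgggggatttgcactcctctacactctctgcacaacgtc
Dusp6: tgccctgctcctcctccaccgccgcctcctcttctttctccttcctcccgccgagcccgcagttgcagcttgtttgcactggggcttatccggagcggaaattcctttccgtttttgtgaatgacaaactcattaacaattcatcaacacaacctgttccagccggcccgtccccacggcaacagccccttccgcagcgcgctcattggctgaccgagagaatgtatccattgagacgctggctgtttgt
Zfp36: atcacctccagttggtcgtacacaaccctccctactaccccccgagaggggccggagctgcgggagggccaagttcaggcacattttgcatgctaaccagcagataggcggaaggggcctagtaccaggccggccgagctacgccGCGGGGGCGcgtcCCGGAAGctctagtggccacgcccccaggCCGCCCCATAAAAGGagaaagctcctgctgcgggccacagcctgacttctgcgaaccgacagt

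Of the 37 members, 26 had a promoter in the RefSeq table, which holds 27025 genes with a promoter of this length. Motifs were searched on both strands. The AP-1 motif TGANTCA was found in 0 of the 26, against 7.82% of all genes in the table. The full cAMP response element TGACGTCA was found in Btg2 and Dusp1 (1.77% of all genes), and its core TGACG, which the full element contains, in 10 members (19.8%). In Fos the core occurs at positions -129 to -125 and -66 to -62 from the start site, and a TATA box (TATAAA) at -33 to -28. The EGR motif GCGNGGGCG was found in 6 members (Btg2, Dusp2, Fosb, Fosl2, Nr4a1 and Zfp36; 5.33% of all genes), in Fosl2 at -79 to -71, where it overlaps a GC box. The ETS motif CCGGAAG was found in Mcl1 and Zfp36 (7.83%), and the CArG box, to which SRF binds, in Dusp5, Egr2 and Zfp36 (1.62%). In Zfp36 the CArG box overlaps a GC box by 1 base. The GC box GGGCGG was found in 21 members (35.4%) and the TATA box in Etv1 and Fos (14.3%). The Dusp6 window held none of these motifs. A match describes letters only, and a missing match says only that these letters are not in the window. The start of Fosl2, Ier3 and Zfp36 in RefSeq differs from the gene boundary in the count table, so their windows may not precede the start used in these cells.

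Total counts per library were between 34783738 and 46744497, and 3 counts, the limit that a count of 0 allows, correspond to 0.0630 to 0.0841 CPM (counts scaled to library size, with TMM factors). Reads of the 37 members made up 0.436 to 0.672% of all counts, the highest shares being those of untreated 03 (0.672%) and post-caerulein 04 (0.615%). Of the members, 35 were abundant enough to be tested. Egr3 reached at most 0.925 CPM and Dusp2 at most 0.0667 CPM, and neither was tested. There were 2 pairs of libraries that lay close together, untreated 01 and 02 and post-caerulein 02 and 03. Over all genes tested they differed by a median of 0.14 and 0.10 on the log2 scale, and every other pair by 0.26 or more. Over the members these medians were 0.26 and 0.10. The first was not far from that of other pairs, such as 0.31 for post-caerulein 01 and 03. Whether either pair shares a culture was not tested. Ductal markers summed to 16841 to 17359 CPM in the untreated and 16713 to 24982 CPM in post-caerulein libraries. RNA was taken from whole cultures, so fewer cells of a type and less RNA per cell cannot be told apart.

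Untreated 03 and post-caerulein 04 stood apart from the other 5 libraries, across groups, in most members. Fos, Fosb, Fosl1, Jun, Egr1, Egr2, Ier2, Dusp1, Dusp5, Spry2, Spry4, Spred3, Myc, Ccnd1, Mcl1, Phlda1, Klf6 and Klf10 were higher in both of these libraries than in each of the other 5. These are 18 of the 35 tested members, against 17.9% of all 16438 genes tested. Fosl2 and Jund were lower in both than in each of the other 5, 2 members against 18.2% of all genes. Over the members, untreated 03 differed from untreated 01 and 02 by a median of 1.20 and 1.09 (log2) but from post-caerulein 04 by 0.31. The same 3 medians over all genes tested were 0.46, 0.45 and 0.29. Untreated 03 was the highest library for 17 members and post-caerulein 04 for 7, where these libraries were highest for 23.3% and 16.6% of all genes. The label of these 2 libraries gives no batch, date or other term that they share.

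**Figure D1:**
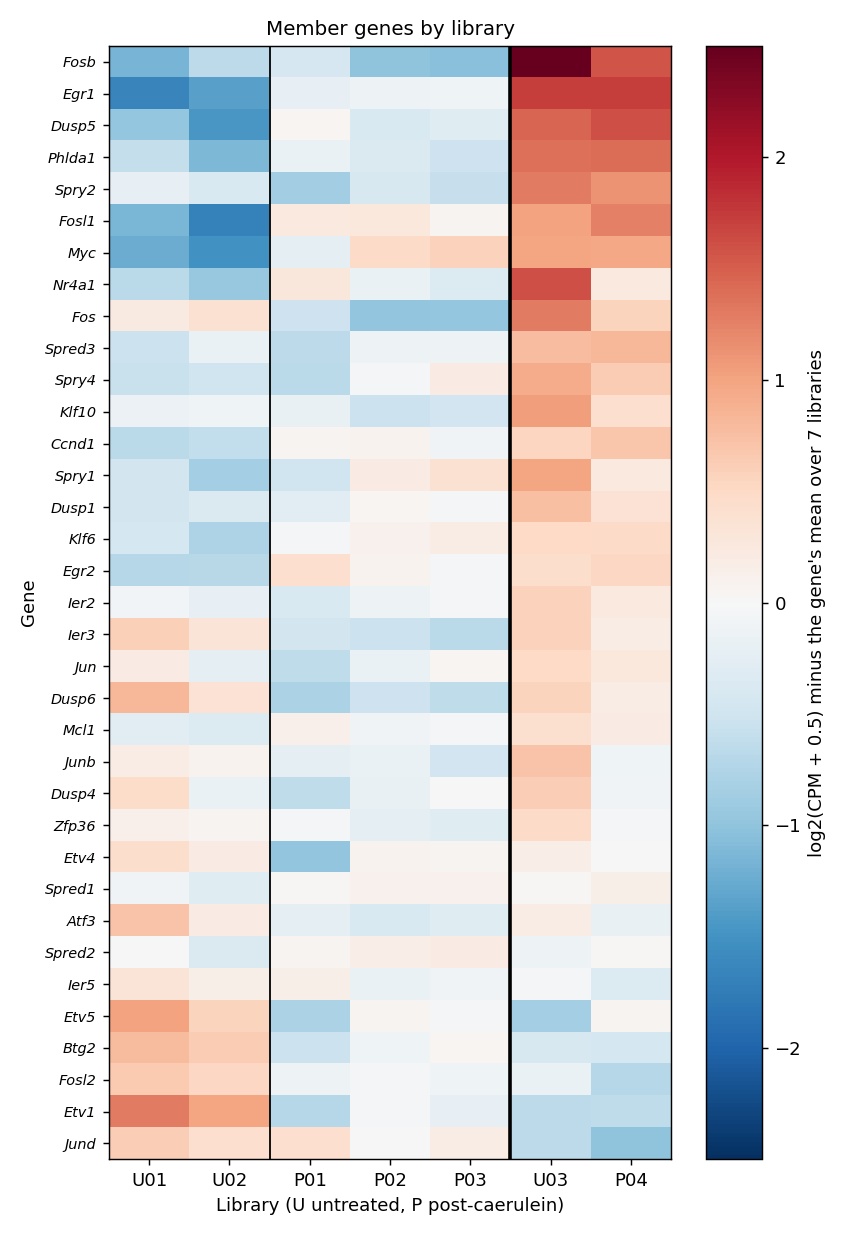
Level of the 35 tested members in each library as log2(CPM + 0.5) minus the gene's mean over the 7 libraries (colour, ending at 2.5 in either direction), with untreated 03 and post-caerulein 04 set to the right of the thick line. Most genes in the upper part, from Fosb to Ier2, are red in both libraries on the right, and Fosl2, Jund, Etv1 and Btg2 at the bottom are blue in both.

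The authors' deposited table of fold changes reflects this difference between libraries. A refit of the counts with group alone did not return it, and gave 320 calls against 1023 in the table. With an added term that sets untreated 03 and post-caerulein 04 (the smaller block, 1 library per group) against the other 5 (the larger block), the refit returned all 1023 calls, with log2 fold changes within 3.16e-08. No label says what the block stands for. Each comparison of the groups is therefore given without and with this block. Both fits used the quasi-likelihood test of edgeR, adjusted by Benjamini and Hochberg's method over all 16438 genes tested, and an adjusted p under 0.05 was called.

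The group comparison asks which parts of the MAPK transcriptional output differ between cultures from mice treated earlier with caerulein and cultures from untreated mice. With group alone, edgeR's quasi-likelihood test called 0 of the 35 tested members and 0% of all genes. At an unadjusted p under 0.05 there were 11 members, of which 10 were lower (Fos, Fosl2, Junb, Atf3, Ier3, Dusp4, Dusp6, Etv1, Btg2 and Zfp36) and Spred2 higher, and 1561 genes in all. DESeq2 and edgeR's likelihood ratio test each called 3 members (Atf3, Ier3 and Dusp6), against 3.10% and 2.09% of all genes, and limma-voom called 0. Without untreated 03 the quasi-likelihood test called 8 members (Fosl1, Egr2, Myc and Klf6 higher, Fosl2, Atf3, Etv1 and Btg2 lower), against 6.83% of all genes. Without post-caerulein 04 it called Ier3 and Dusp6, both lower, against 0.354% of all genes. With the block, 3 members fell (Fos, Fosl2 and Ier3), against 0.876% of all genes called lower. No member was called higher, against 0.651% of all genes, and 22 members had an unadjusted p under 0.05, as had 2877 of all genes. The median log2 change of the 35 members was -0.25 without and -0.23 with the block, against -0.02 and -0.00 over all genes tested. This shift depended on single libraries: the median was 0.31 with group alone without untreated 03, and -0.02 with the block without either untreated 03 or post-caerulein 04. Apart from any test, the groups did not overlap for 6 members that were lower after caerulein (Junb, Atf3, Ier3, Dusp6, Etv4 and Zfp36) and for 1 that was higher (Spred2). Over all genes these shares were 4.64% and 4.67%.

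**Figure D2:**
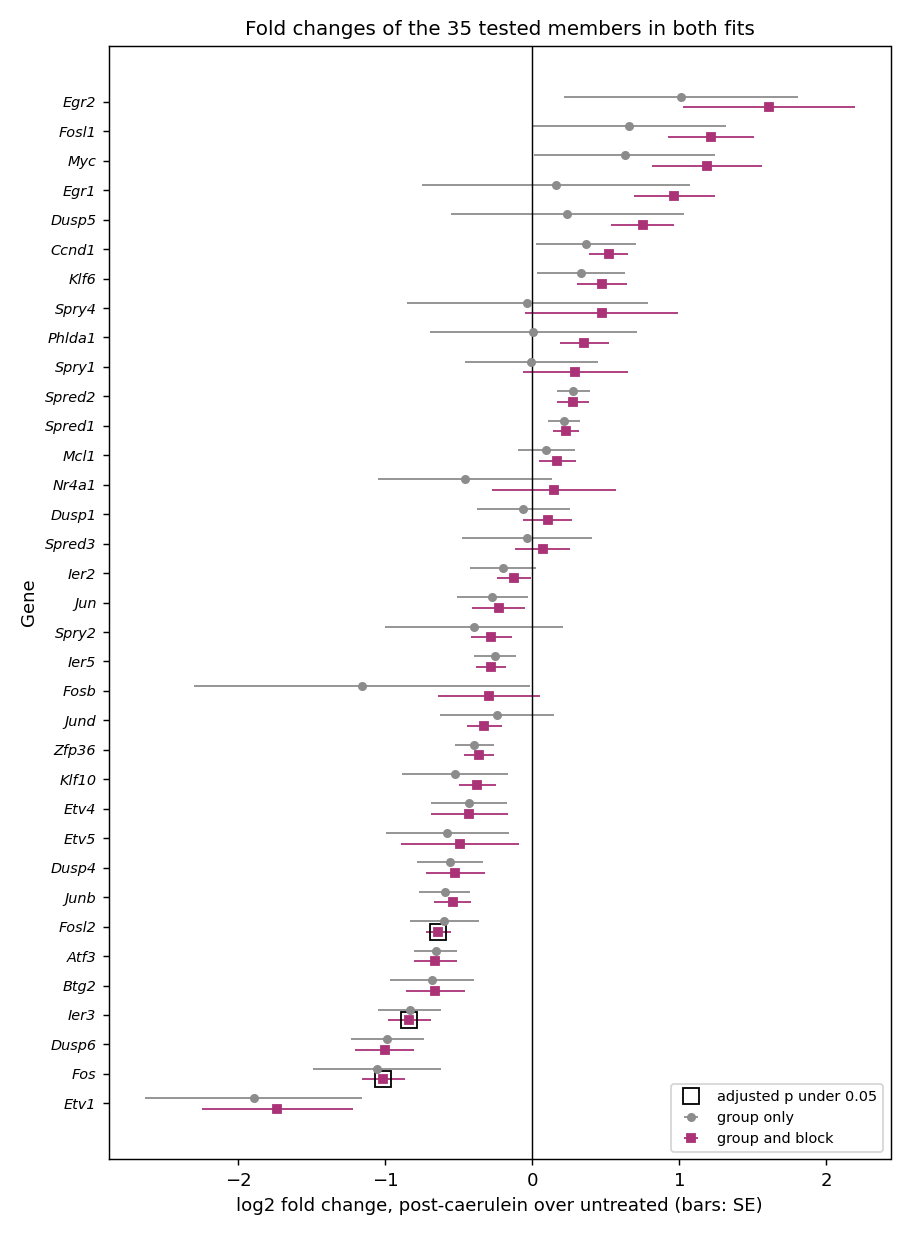
Log2 fold change of post-caerulein over untreated libraries for the 35 tested members, with the group as the only term (grey circles) and with the block added (purple squares). Bars are standard errors derived from the test statistic. The open squares around Fosl2, Ier3 and Fos mark an adjusted p under 0.05, which no grey circle reached.

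Fos, the founding immediate early gene and a partner of Jun proteins in AP-1, stood at 112, 125 and 235 CPM in untreated 01 to 03 and at 66.7, 48.0, 48.2 and 139.8 CPM in post-caerulein 01 to 04. Within each group the library of the smaller block was the highest, and post-caerulein 04 lay above untreated 01 and 02, so the groups overlapped. The untreated mean was 157 ± 67.9 CPM (SD, n = 3) and the post-caerulein mean 75.7 ± 43.7 CPM (SD, n = 4). The fitted log2 change was -1.06 ± 0.44 (SE) without the block, with an adjusted p of 0.500, and -1.02 ± 0.15 with it, with an adjusted p of 0.0304 (edgeR quasi-likelihood). Fosl2, which encodes the AP-1 subunit FRA2, fell too. It was at 478, 439 and 271 CPM in the untreated and 280.0, 296, 282 and 187 CPM in post-caerulein libraries. Here the smaller block held the lowest library of each group, the reverse of Fos, and untreated 03 lay below post-caerulein 01 to 03. On the log2 scale the change was -0.60 ± 0.23 without the block (adjusted p = 0.460) and -0.64 ± 0.09 with it (adjusted p = 0.0273, edgeR quasi-likelihood). Both calls were lost in settings that leave out or merge libraries of the close pairs. Without untreated 01, untreated 02, post-caerulein 02 or post-caerulein 03, or with each close pair summed, the adjusted p lay between 0.0854 and 0.559 for Fos and between 0.0900 and 0.589 for Fosl2. Their log2 changes then stayed between -1.03 and -0.93 and between -0.66 and -0.59.

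Neither of the other Fos genes was called in either fit. Fosl1, which encodes FRA1, an AP-1 subunit whose gene is itself a target of ERK and AP-1, stood at 15.1, 10.3 and 69.6 CPM in the untreated and at 40.6, 41.5, 35.9 and 82.2 CPM in post-caerulein libraries. Untreated 03 exceeded post-caerulein 01 to 03, and untreated 01 and 02 lay below every post-caerulein library. The log2 change was 0.66 ± 0.66 without the block (adjusted p = 0.862) and 1.21 ± 0.29 with it (adjusted p = 0.0926, edgeR quasi-likelihood). With group alone it was 2.00 without untreated 03 (adjusted p = 0.0298), 0.24 without untreated 02, 0.33 without untreated 01 and 0.31 without post-caerulein 04. Fosb, a further Fos family subunit, lay between 1.34 and 2.58 CPM in the 5 libraries of the larger block, at 25.8 CPM in untreated 03 and at 11.8 CPM in post-caerulein 04. Its log2 change was -1.16 ± 1.14 without and -0.30 ± 0.34 with the block. The highest library was 19.3 times the lowest.

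Levels scaled to exon length as well as depth (RPKM) allow the Fos genes to be set beside each other. Fosl1 made up 6.54, 4.53 and 20.3% of the summed RPKM of the 4 Fos genes in untreated libraries and 24.1, 26.2, 24.1 and 33.0% in post-caerulein libraries. Its share was lower in each untreated library than in each post-caerulein library. The sum itself was 136, 133 and 201 RPKM in the untreated and 98.9, 92.7, 87.4 and 146 RPKM in post-caerulein libraries, so the groups overlapped in the sum. Fosl2 held 54.0 and 50.6% of it in untreated 01 and 02, 43.3 to 49.3% in post-caerulein 01 to 03, and 20.7 and 19.6% in untreated 03 and post-caerulein 04. The Fos share was 39.2, 44.5 and 55.6% in untreated and 32.0, 24.5, 26.1 and 45.4% in post-caerulein libraries. These shares are a description with no test.

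**Figure D3:**
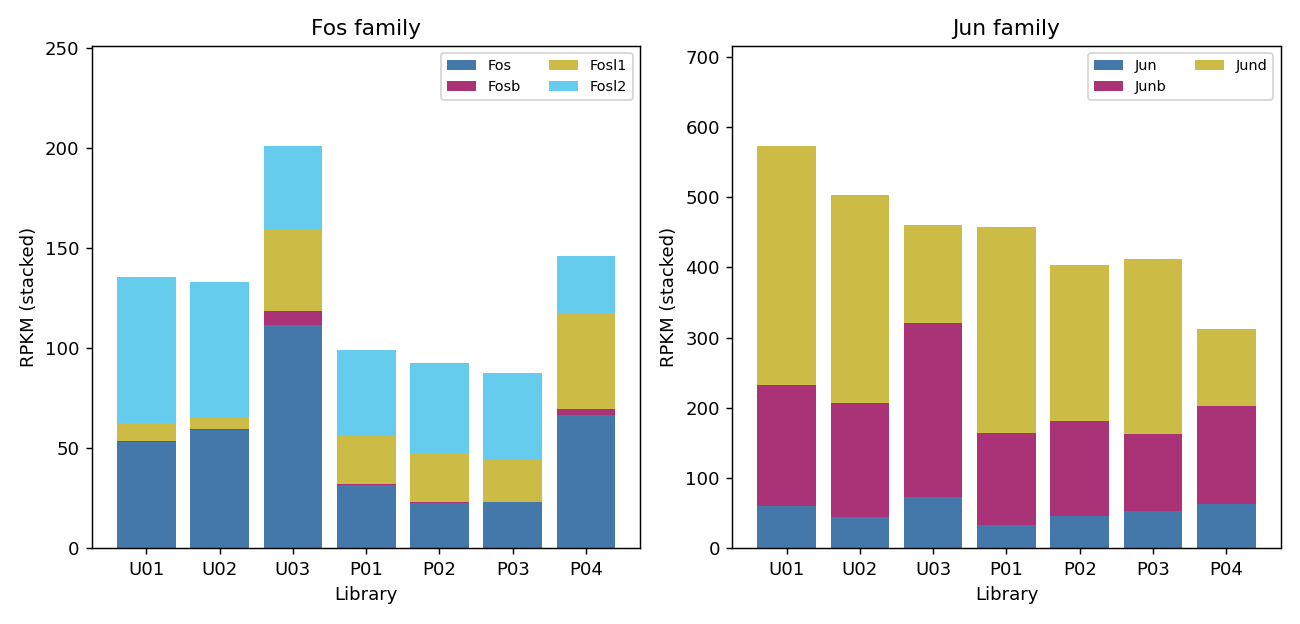
Stacked RPKM of the 4 Fos genes (left) and the 3 Jun genes (right) in each untreated (U) and post-caerulein (P) library. The Fosl1 layer is thin in U01 and U02 and thicker in the other 5 libraries, and Jund makes the largest layer of the Jun genes except in U03 and P04, where Junb does.

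Among the Jun genes, Junb, an AP-1 subunit that can oppose Jun, was the one whose groups did not overlap. It was at 313, 293 and 449 CPM in the untreated and 237, 245, 196 and 254 CPM in post-caerulein libraries. Every untreated library was above every post-caerulein one, yet the log2 change of -0.60 ± 0.17 without the block (adjusted p = 0.307) and of -0.54 ± 0.12 with it (adjusted p = 0.0804, edgeR quasi-likelihood) passed neither test. Jun, the classical partner of Fos, ranged from 141 to 232 CPM and from 106 to 199 CPM, with a log2 change of -0.27 ± 0.24 without the block (adjusted p = 0.831) and -0.23 ± 0.18 with it (adjusted p = 0.575). Jund, the Jun subunit most tied to quiescent cells, was at 566, 496 and 233 CPM in the untreated and 489, 371, 417 and 184 CPM in post-caerulein libraries. Low Jund therefore marked the smaller block in both groups. Jund held 55.1 to 64.1% of the summed RPKM of the Jun genes in the larger block, but 30.4% in untreated 03 and 35.2% in post-caerulein 04, where Junb held 53.9 and 44.8%.

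Egr1, a zinc finger factor induced through SRF and ternary complex factors, was high in the smaller block in both groups. It was at 8.86, 11 and 98.0 CPM in the untreated and 25.1, 26.5, 26.9 and 97.1 CPM in post-caerulein libraries. The fitted log2 change was 0.16 ± 0.91 without the block (adjusted p = 0.983) and 0.97 ± 0.27 with it (adjusted p = 0.130, edgeR quasi-likelihood). Without the block its sign turned when any of untreated 01, untreated 02 or post-caerulein 04 was left out, to -0.31, -0.28 and -0.59. Egr2, of the same family, was near the limit of detection in untreated 01 and 02 (0.0742 and 0.0843 CPM) and between 0.421 and 0.861 CPM in the other 5.

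Atf3, a stress-induced bZIP factor that also pairs with Jun, was at 93.5, 65.8 and 64.9 CPM in the untreated and 48.7, 44.0, 46.4 and 50.4 CPM in post-caerulein libraries. The post-caerulein libraries lay within a narrow band (47.4 ± 2.81 CPM, SD, n = 4) below every untreated library (74.7 ± 16.3 CPM, SD, n = 3). On the log2 scale the change was -0.66 ± 0.15 without the block (adjusted p = 0.242) and -0.66 ± 0.14 with it (adjusted p = 0.0716, edgeR quasi-likelihood). Atf3 was among the members that did not follow the block.

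Of the IER genes, short-lived primary response genes, Ier3 fell. Ier3, also called IEX-1, affects ERK signalling and cell survival. It was at 287, 236 and 281 CPM in the untreated and 137, 129, 119 and 216 CPM in post-caerulein libraries. The groups did not overlap, and post-caerulein 04 came closest to the untreated libraries. The untreated mean was 268 ± 27.8 CPM (SD, n = 3) and the post-caerulein mean 150.2 ± 44.3 CPM (SD, n = 4). The log2 change was -0.83 ± 0.21 without the block (adjusted p = 0.269) and -0.84 ± 0.15 with it (adjusted p = 0.0468, edgeR quasi-likelihood). The call was lost under a stricter filter on low counts (adjusted p = 0.0525), without untreated 01, untreated 02 or post-caerulein 01, 02 or 03 (0.0910 to 0.264) and with the close pairs summed (0.603). Ier2, a nuclear protein of the same name, ranged from 42.7 to 83.8 CPM and Ier5, a regulator of heat shock factor, from 95.1 to 151 CPM. The highest library was less than 2 times the lowest for both.

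**Figure D4:**
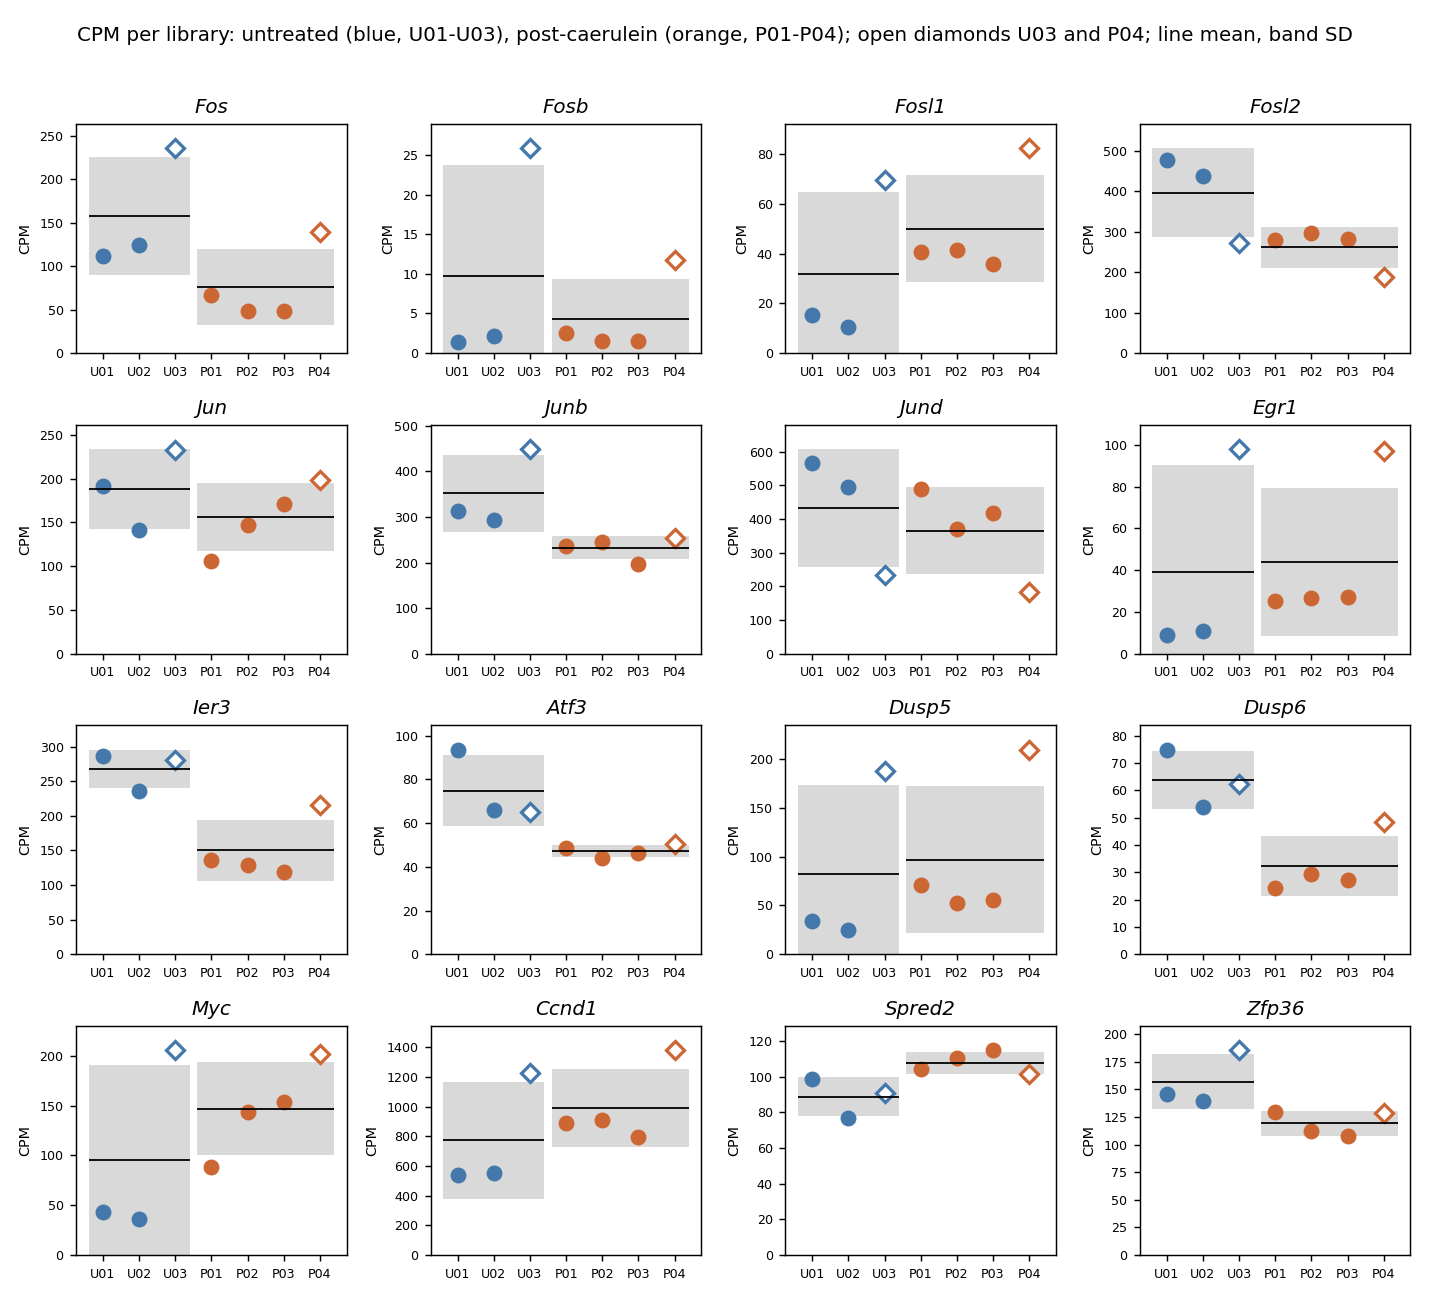
CPM of 16 members in the 3 untreated (blue) and 4 post-caerulein (orange) libraries, with a line for the group mean and a band of 1 SD, drawn down to 0 at most. Open diamonds mark untreated 03 and post-caerulein 04, which lie above the other libraries for Fosl1, Egr1, Dusp5, Myc and Ccnd1, while the groups do not overlap for Junb, Ier3, Atf3, Dusp6, Zfp36 and Spred2.

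Of the 4 tested DUSP phosphatases, Dusp6 and Dusp5 showed unlike patterns over the libraries. Dusp6, a cytoplasmic phosphatase selective for ERK and a widely used readout of ERK activity, was at 74.9, 54.1 and 62.5 CPM in the untreated and 24.1, 29.3, 27.1 and 48.3 CPM in post-caerulein libraries. The groups did not overlap, and the post-caerulein mean was 0.505 of the untreated mean (32.2 ± 10.9 CPM, SD, n = 4, against 63.8 ± 10.5 CPM, SD, n = 3). The fitted log2 change was -0.99 ± 0.25 without the block (adjusted p = 0.266) and -1.01 ± 0.20 with it (adjusted p = 0.0617, edgeR quasi-likelihood). Dusp5, a nuclear ERK phosphatase, instead followed the block, at 34.5, 24.8 and 187 CPM in the untreated and 70.6, 52.3, 55.5 and 209.6 CPM in post-caerulein libraries. Dusp1, which acts on p38 and JNK as well as ERK, was highest in untreated 03 (671 CPM) and post-caerulein 04 (506 CPM) and lay between 287 and 407 CPM in the rest. Dusp4, a nuclear phosphatase, ranged from 25.9 to 44.4 CPM in the untreated and from 18.4 to 28.7 CPM in post-caerulein libraries. None of these genes was called in either fit.

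Of the 6 Sprouty and Spred inhibitors 0 were called in either fit. Spry2 was at 13.4, 11.7 and 38.6 CPM in the untreated and 8.24, 11.6, 10.3 and 34.2 CPM in post-caerulein libraries, so the smaller block was high in both groups. Spry1 ranged from 8.28 to 30.8 CPM. Spry4 was low throughout, between 0.168 and 1.51 CPM, with a log2 change of -0.03 ± 0.82 without the block (adjusted p = 0.997) and 0.47 ± 0.52 with it (adjusted p = 0.709, edgeR quasi-likelihood). The sign of the former depended on the setting, and it was 1.46 without untreated 03. Among the Spred genes, Spred2 was at 98.8, 76.9 and 90.6 CPM in the untreated and 104, 111, 115 and 101 CPM in post-caerulein libraries. It was the one member with every post-caerulein library above every untreated one, but the log2 change of 0.28 ± 0.11 without the block (adjusted p = 0.491) and of 0.27 ± 0.11 with it (adjusted p = 0.247) passed neither test. Spred1 ranged from 41.4 to 57.0 CPM, the smallest ratio of highest to lowest library among the tested members (1.37), and Spred3 reached 16.0 and 16.9 CPM in untreated 03 and post-caerulein 04 against 5.72 to 8.49 CPM elsewhere.

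The PEA3 group of ETS factors, transcription factors induced by FGF and EGF signalling, had 0 of 3 members called in either fit. Etv4 was at 36.8, 31.1 and 30.5 CPM in the untreated and 13.4, 28.7, 28.2 and 27.0 CPM in post-caerulein libraries. The groups did not overlap, by a narrow margin except for post-caerulein 01. On the log2 scale the change was -0.43 ± 0.26 in both fits, with adjusted p of 0.698 and 0.457 (edgeR quasi-likelihood). Etv5 was at 50.9, 37 and 13.6 CPM in the untreated and 14.2, 26.1, 24.3 and 26.0 CPM in post-caerulein libraries, with a log2 change of -0.58 ± 0.42 without the block (adjusted p = 0.779) and -0.49 ± 0.40 with it (adjusted p = 0.598). Untreated 03 was the lowest of all 7, so the groups overlapped. Etv1 was low, at 2.30, 1.75 and 0.222 CPM in the untreated and 0.196 to 0.610 CPM in post-caerulein libraries.

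Of the 4 growth and survival genes 0 were called in either fit, and all 4 were highest in the smaller block. Myc, a driver of biosynthesis and proliferation, was at 43.3, 36.2 and 205 CPM in the untreated and 88.1, 144, 154 and 202 CPM in post-caerulein libraries. Its log2 change was 0.63 ± 0.61 without the block (adjusted p = 0.858) and 1.19 ± 0.38 with it (adjusted p = 0.164, edgeR quasi-likelihood). With group alone it was 1.91 without untreated 03 (adjusted p = 0.0175), 0.28 without untreated 01 and 0.24 without untreated 02. Ccnd1, which encodes cyclin D1 of the G1 phase, was at 536, 551 and 1229 CPM in the untreated and 887, 906, 795 and 1379 CPM in post-caerulein libraries. Its log2 change was 0.36 ± 0.34 without the block (adjusted p = 0.85) and 0.52 ± 0.13 with it (adjusted p = 0.0993). For both genes untreated 01 and 02 lay below every other library. Per length, the highest mean level of the members was that of Jund in untreated libraries (259 RPKM, against 206 RPKM for Ccnd1) and that of Ccnd1 in post-caerulein libraries (265 RPKM, against 219 RPKM for Jund). Over the 7 libraries the levels ranged from 143 to 369 RPKM for Ccnd1 and from 110.2 to 339 RPKM for Jund, so they overlapped widely. Phlda1, a pleckstrin homology-like protein, was at 120.4 and 121 CPM in untreated 03 and post-caerulein 04 and between 20.9 and 40.6 CPM elsewhere. Mcl1, an anti-apoptotic BCL2 relative, ranged from 224 to 371 CPM.

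Among the remaining primary response genes, Zfp36, which encodes tristetraprolin, an mRNA decay factor for AU-rich transcripts, was at 146, 139.7 and 185 CPM in the untreated and 129, 112, 108 and 128 CPM in post-caerulein libraries. The groups did not overlap, and the log2 change was -0.39 ± 0.13 without the block (adjusted p = 0.381) and -0.36 ± 0.10 with it (adjusted p = 0.120, edgeR quasi-likelihood). Btg2, an anti-proliferative gene, was at 472, 425 and 207 CPM in the untreated and 187, 251, 281 and 199 CPM in post-caerulein libraries, so untreated 03 lay among the post-caerulein libraries. Nr4a1, an orphan nuclear receptor, was at 29.0, 24.0 and 144 CPM in the untreated and 56.8, 41.8, 36.9 and 55.6 CPM in post-caerulein libraries. Unlike Egr1, it was high in untreated 03 alone. Klf6, a zinc finger factor, was at 929.9 and 924 CPM in untreated 03 and post-caerulein 04 and between 386 and 748 CPM elsewhere, and Klf10, a TGF-beta inducible factor, ranged from 24.3 to 73.9 CPM.

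The group effect was then read within each block. In the larger block alone (untreated 01 and 02 against post-caerulein 01 to 03), the same edgeR test and adjustment called 15 members. Fosl1, Egr1, Egr2, Dusp5, Myc, Ccnd1, Klf6 and Nr4a1 rose, 8 members against 7.35% of the 16276 genes tested there. Fos, Fosl2, Atf3, Ier3, Dusp6, Etv1 and Btg2 fell, 7 members against 6.46% of genes. The untreated side of this fit is the close pair 01 and 02, and 2 of the 3 post-caerulein libraries are the other close pair. The largest rises of genes above 1 CPM were those of Myc (1.72, adjusted p = 0.00710), Fosl1 (1.66, adjusted p = 0.00235) and Egr1 (1.42, adjusted p = 0.00152). The falls included Dusp6 (-1.24, adjusted p = 0.00401), Fos (-1.10, adjusted p = 0.00616) and Ier3 (-1.0, adjusted p = 0.00259).

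In the smaller block, 1 library stands for each group, so its differences have no replicate check. Post-caerulein 04 minus untreated 03, as log2(CPM + 0.5), was within 0.3 of 0 for 7 of the 8 members that rose in the larger block: Myc -0.03, Fosl1 0.24, Egr1 -0.01, Egr2 0.09, Dusp5 0.16, Ccnd1 0.17 and Klf6 -0.01. Nr4a1, the eighth, was lower in post-caerulein 04, by -1.36. Values within 0.3 of 0 were common. Between these 2 libraries the median absolute log2 difference was 0.29 over all genes tested and 0.31 over the members. Of the 7 that fell in the larger block, 6 were lower in post-caerulein 04: Fos -0.75, Fosl2 -0.54, Ier3 -0.38, Dusp6 -0.37, Atf3 -0.36 and Btg2 -0.06. Etv1 was at 0.02. A lower value in post-caerulein 04 than in untreated 03 was common among the members. It was seen in 25 of all 35 tested members and in 8153 of the 16438 genes tested. The difference between the blocks was tested as an interaction over all 16438 genes, where the smaller block again has 1 library per group. Its standard errors and p-values therefore come from the spread within the larger block, close pairs included, and cannot show how far libraries like untreated 03 and post-caerulein 04 vary. It was called for 2 members, against 3.64% of all genes: Egr1, with an effect lower by -1.41 ± 0.21 in the smaller than in the larger block (adjusted p = 0.0217), and Nr4a1, by -2.14 ± 0.35 (adjusted p = 0.0319). For the other 33 members the difference between the blocks was not called.

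**Figure D5:**
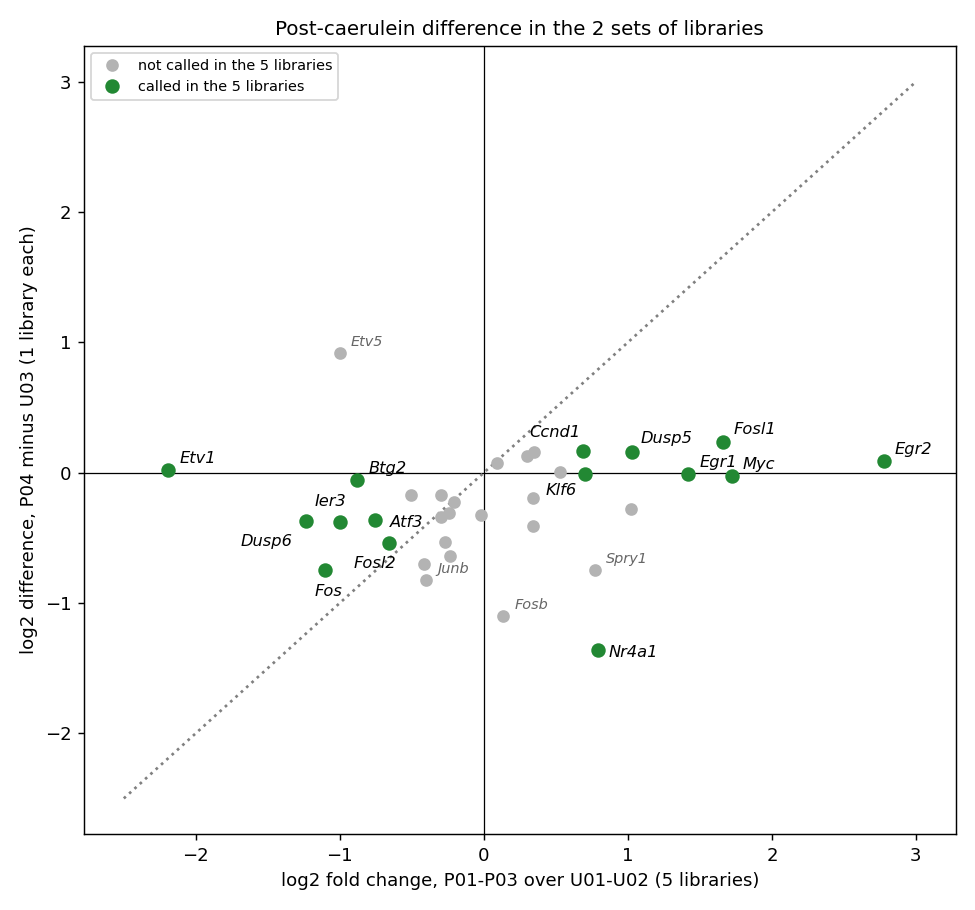
Each point is 1 of the 35 tested members, with the log2 fold change in the larger block on the horizontal axis and the log2 difference of post-caerulein 04 and untreated 03 on the vertical axis; the dotted line marks equal values. The genes called higher on the right, apart from Nr4a1, lie near 0 on the vertical axis. Fos, Fosl2, Ier3, Dusp6 and Atf3 lie below 0 on both axes, and 25 of the 35 members lie below 0 on the vertical axis.

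The authors' deposited table lists 32 of the members and calls 11 of them at a false discovery rate under 0.05. It gives 4 as higher (Fosl1, Egr1, Dusp5 and Myc), against 4.49% of the 12983 genes in that table, and 7 as lower (Fos, Fosl2, Junb, Atf3, Ier3, Dusp6 and Btg2), against 3.39%. In the authors' deposited table the log2 fold change was -1.01 for Fos, 1.23 for Fosl1, -0.99 for Dusp6 and 1.21 for Myc. The 3 members called here with the same block are all among the 11. Both results come from the same counts, so this overlap is no independent check. The authors' deposited table used a likelihood ratio test, as the refit shows.

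The wider pathway was read from 8 lists holding 184 further genes, of which 171 were tested. With the block, 1 of these rose and 7 fell (edgeR quasi-likelihood, adjusted p under 0.05), and without it 0 were called. Over all genes 0.651% rose and 0.876% fell with the block. None of these 8 calls remained without untreated 01, untreated 02 or post-caerulein 03 or with the close pairs summed. In the list from the EGF receptor to ERK, 0 of 29 tested genes were called in either fit, and the median log2 change with the block was -0.01. Egfr ranged from 142 to 179.6 CPM in the untreated and from 157 to 251 CPM in post-caerulein libraries. Mapk3, which encodes an ERK kinase, ranged from 374 to 478 CPM in the untreated and from 291 to 447 CPM in post-caerulein libraries. The groups overlapped for both genes.

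In the JNK and p38 list, 1 of 20 tested genes rose: Mapk11, which encodes p38 beta, from 22.7, 24.4 and 23.9 CPM in untreated to 39.1, 35.4, 34.5 and 35.2 CPM in post-caerulein libraries (log2 change with the block 0.60 ± 0.09, adjusted p = 0.0335, edgeR quasi-likelihood). Among SRF, ternary complex and CREB factors, 1 of 20 fell, the epithelial ETS factor Elf3 (-1.51 ± 0.16). Srf itself was at 71.0, 67.9 and 69.6 CPM in the untreated and 95.9, 74.2, 75.5 and 85.4 CPM in post-caerulein libraries (0.25 ± 0.11, adjusted p = 0.289). Among other bZIP partners 1 of 14 fell, Cebpd (-1.12 ± 0.14), a gene that stands also on the list of other immediate early genes. Of that list 5 of 32 fell and 0 rose: Hes1 (-1.42 ± 0.24), Bhlhe40 (-1.28 ± 0.18), Cebpd, Ier5l (-0.90 ± 0.14) and Plk3 (-0.72 ± 0.09). Bhlhe40, a circadian and stress repressor, was at 463, 391 and 373 CPM in the untreated and 141, 166, 140.4 and 233 CPM in post-caerulein libraries. Of AP-1 and ERK targets 2 of 29 fell, Gdf15 (-1.48 ± 0.21), a stress-induced cytokine, and Ier5l, and 0 rose. Of other dual-specificity phosphatases 0 of 14 were called. The median log2 change with the block was -0.23 for the other immediate early genes and -0.03 for the AP-1 and ERK targets.

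Dissociation of tissue is known to induce immediate early and heat shock genes together, so the heat shock list was read beside the members. Its 15 genes summed to 9425, 8419 and 6990 CPM in the untreated and 7418, 7995, 8119 and 7168 CPM in post-caerulein libraries. The sum was lowest in untreated 03 and post-caerulein 04. By gene, 8 of the 15 were lower in both of these libraries than in each of the other 5, and 2 were higher. Over all genes tested these shares were 18.2% and 17.9%. Of the 32 tested other immediate early genes, 10 were higher in both and 8 lower, where 18 and 2 of the 35 members were. Hspa1a was at 24.7, 24.0 and 6.22 CPM in the untreated and 26.7, 14.2, 12.3 and 4.31 CPM in post-caerulein libraries. Reads of mitochondrially encoded genes made up 1.83, 2.14 and 2.68% of counts in untreated and 2.63, 2.38, 2.32 and 2.75% in post-caerulein libraries, highest in untreated 03 and post-caerulein 04. The part of heat shock and mitochondrial genes in the member levels was not tested.

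Markers of other cells were low, apart from the leukocyte list. The 13 fibroblast and stellate markers summed to 1.04, 1.54 and 24.6 CPM in the untreated and 5.35, 10.3, 6.72 and 11.5 CPM in post-caerulein libraries, highest in untreated 03 and post-caerulein 04. Of the 8 tested, 3 were higher in both of these libraries than in each of the other 5, and 1 was lower. Among these markers Thy1 had 0 reads in all untreated libraries and Lum had 0 in 4 of the 7. The part of these cells, and of those that follow, in the member differences was not tested. The 12 acinar markers summed to 1.56 to 2.29 CPM in the untreated and 3.22 to 13.1 CPM in post-caerulein libraries, with Amy2a5 at 0 reads throughout. The 10 islet markers summed to 0.148 to 0.667 and 0.588 to 6.11 CPM, with Ppy at 0 reads. The 12 leukocyte markers summed to 187 to 203 and 97.1 to 224 CPM, most of it from Cd14 and Cd68, while Ptprc, the pan-leukocyte marker, reached at most 0.105 CPM. The 8 endothelial markers summed to 1.67 to 3.43 and 0.617 to 2.14 CPM, and the 8 Schwann cell and neuron markers to 1.16 to 2.55 and 1.61 to 2.52 CPM.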

How the data were processed

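Polyadenylated RNA of 3 untreated and 4 post-caerulein spheroid libraries was analysed, with groups and replicate numbers from the sample titles. The authors deposited 1 column of raw counts per library, per the file headers, with reads assigned with featureCounts (version 0.6.1) on GRCm38, per the submitters' processing notes. Which aligner and strand setting were used is not given in the sources used here. Reads of overlapping or antisense genes may have been mixed. The deposited edgeR (version 3.2.2) table holds log2 fold changes, average log2 CPM, a likelihood ratio score, p-values and false discovery rates, per the file headers.

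Here, genes kept by filterByExpr (minimum count 10, minimum total 15) were scaled by TMM and tested, two-sided, with edgeR 4.0.16 (quasi-likelihood, robust) in R 4.3.3, with Benjamini-Hochberg adjustment over 16438 genes. CPM use TMM-scaled library sizes, and RPKM also the exon length in the deposited table. Standard errors of log2 changes were derived from the test, as the absolute change divided by the square root of its F statistic. The 2 fits, without and with the block of the deposited table, and 18 alternatives, among them limma 3.58.1 and DESeq2 1.42.0, were run, and the procedure was tested on simulated data. The interaction of group and block was added after seeing the data. The members, lists and tests were chosen with earlier results of these data known. Full values were given for members called, with non-overlapping groups, or on a set list of 13. Listed genes called were named, with Egfr, Mapk3, Srf and Hspa1a. A few genes that this rule takes are not reported here. Other members' values are ranges or per library. Figures used matplotlib 3.10.9.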

Additional observations from a re-analysis of the deposited data

Results flagged for a closer look

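Among the 4 post-caerulein libraries, 9 of the 35 tested members had 1 library set apart by a gap over 0.829 of the group's range. Chance gives a gap of this size in about 1 in 20 groups of 4. The share of all genes with such a gap was not counted, so the 9 cannot be called particular to the members. Over all genes tested, untreated 03 and post-caerulein 04 were both above the other 5 libraries for 17.9% and both below for 18.2%. Post-caerulein 04 was the highest for Fosb (11.8 CPM, others 1.49 to 2.58), Fosl1 (82.2 CPM, others 35.9 to 41.5), Egr1 (97.1 CPM, others 25.1 to 26.9), Dusp5 (209.6 CPM, others 52.3 to 70.6), Spry2 (34.2 CPM, others 8.24 to 11.6) and Phlda1 (121 CPM, others 32.0 to 40.6). It was the lowest for Fosl2 (187 CPM, others 280.0 to 296). Post-caerulein 01 was the lowest for Etv4 (13.4 CPM, others 27.0 to 28.7) and Etv5 (14.2 CPM, others 24.3 to 26.1). Post-caerulein 02 and 03 lie close together, which narrows the spread of the others. Groups of 3 were not tested, so untreated 03 was not examined in this way.

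For Egr1 and Nr4a1 the interaction of group and block was -1.41 and -2.14 (log2, smaller minus larger block, edgeR quasi-likelihood fit). The smaller block holds 1 library per group, so its own spread is not known and these 2 values have no replicate check. Any test of them rests on the spread within the larger block. The Nr4a1 value goes with the level in untreated 03 alone (144 CPM, other 6 libraries 24.0 to 56.8).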

How the results depend on the processing

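With group alone, 0 members were called under the other scalings and filters, limma-voom, edgeR without robust estimation, the close pairs summed and the replicate block (0 members). DESeq2 and the likelihood ratio test called 3 each, and leaving out 1 library gave 0 to 8, with 8 without untreated 03 and 2 without post-caerulein 04. The replicate numbers 1 to 3 are shared by the groups, but no label says that they pair the libraries: same-numbered deviations from the group means correlated at 0.37, 0.14 and -0.21 over 16438 genes, and the deviation of untreated 03 correlated best with post-caerulein 04 (0.56). With the block of the deposited table, 3 members were called. The count was 7 with no filter on low counts (1.91% of all genes called), 14 with DESeq2 (8.45%), 13 with the likelihood ratio test (7.46%), 0 with the close pairs summed (0%) and 15 in the larger block alone (13.8%), against 1.53% for the 3, so the share called rose over all genes too. Leaving out 1 library gave 0 to 15: 0 without untreated 01, untreated 02, post-caerulein 02 or post-caerulein 03, 2 without post-caerulein 01, and 15 without untreated 03 or post-caerulein 04, which leaves the larger block to carry the comparison. The cause of the other changes was not tested. With group alone the Egr1 change turned to -0.31, -0.28 and -0.59 without untreated 01, untreated 02 and post-caerulein 04 (it was 2.17 without untreated 03), and to -0.12 with the close pairs summed. The Spry4 change turned to 0.0078 with library size only, 0.28 with limma-voom, 1.46 without untreated 03, 0.28 without post-caerulein 01 and 0.05 without post-caerulein 02, and was -0.48 without post-caerulein 04. Depth limits what can be said of Egr3, Dusp2 and Egr2, under 1 CPM in every library, and of Etv1 and Spry4, under 1 CPM in 5 of 7.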
